A study of Arabidopsis thaliana with 4 samples.

Results

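The 5 polyubiquitin genes of Arabidopsis thaliana, UBQ3 (AT5G03240), UBQ4 (AT5G20620), UBQ10 (AT4G05320), UBQ11 (AT4G05050) and UBQ14 (AT4G02890), were examined for peaks of the transcription factor RVE5. They were chosen by locus identifier as strongly transcribed genes of similar sequence, out of 27432 protein-coding genes on the nuclear chromosomes, with earlier results of these data known. Every peak that overlapped the span of a member with 3000 bp added on both sides was taken. This gave 7 of the 2367 peaks in the deposited lists, 5 at UBQ10 and 2 at UBQ11. UBQ3, UBQ4 and UBQ14 had none in any replicate.

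The peaks come from chromatin immunoprecipitation with sequencing (ChIP-seq) of whole seedlings, 14 days old, that overexpress RVE5 fused to a MYC tag. RVE5 belongs to the MYB-like REVEILLE family, and the series concerns hypocotyl growth in warmth. The plants were grown at 22 °C in 16 h of light and 8 h of dark, spent 12 h at 29 °C and were harvested at zeitgeber time 12 h. An antibody against MYC gave 3 ChIP replicates, and 1 input library received no antibody. All 4 samples shared genotype, age and treatment. No plants without the tag were among them, and the labels do not say whether the replicates were separate plants, so the spread between them may be technical. The sources used here name neither the promoter that drives the fusion nor the number of transgenic lines.

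Ubiquitin is a small protein that is joined to other proteins and, as a chain, commonly marks them for breakdown by the proteasome. A polyubiquitin gene encodes several ubiquitin units head to tail in 1 open reading frame, and the translated chain is then cut into single units. Because the units within a gene and between genes are nearly alike, short reads from them can match more than 1 place. Polyubiquitin genes are transcribed in most plant tissues, and UBQ10 is widely used as a reference gene and as a source of a promoter for transgenes. The sources used here do not say how reads with several matches were placed.

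The lists of replicates 1, 2 and 3 held 676, 827 and 864 peaks. The depth of the libraries is unknown here. The pileup, taken here as the number of reads or fragments stacked at a peak's summit, had a median of 38, 39 and 40. The fold, the authors' fold enrichment, is taken here as a peak's pileup over a local background. It had a median of 2.58, 2.53 and 2.50. Both belong to a peak in its own list, and ranks below are within 1 list.

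UBQ10 had a peak in all 3 replicates. Of all protein-coding genes, 1.81% had a peak within 3000 bp in each of the 3. By replicate, 2 of the 5 members had a peak in replicate 1, against 5.59% of all genes, 2 in replicate 2, against 6.61%, and 1 in replicate 3, against 7.02%. Replicate 1 held a single broad peak on chromosome 4 from 2717518 to 2718737 (TAIR10), 1220 bp wide. Replicate 2 held 2 narrow peaks in its place, from 2717844 to 2718074 and from 2718739 to 2718950. Replicate 3 also held 2 narrow peaks, from 2717748 to 2718063 and from 2718375 to 2718607. The broad peak of replicate 1 thus spanned the stretch in which the other replicates had separate peaks, except that the second peak of replicate 2 began just past its end. Each of the 3 lists had a peak over the same end of the gene, but the peaks differed in number, width and summit. From lists alone, signal in different places cannot be told apart from a like signal that was divided differently.

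The summits at UBQ10 lay from 30 bp outside to 793 bp inside 1 end of the gene, the end with the lower coordinate. The gene table used here gives no strand, so this end is not called the start or the stop of transcription. The stronger peaks of replicates 2 and 3 had summits 9 bp and 30 bp outside this end. These summits were 21 bp apart. Such a place is common in these lists: 25%, 26.96% and 24.3% of all summits in replicates 1, 2 and 3 lay within 100 bp of an end of a protein-coding gene. Their weaker peaks had summits 793 bp and 527 bp inside the gene. In replicate 1 the summit lay 388 bp inside, between the stronger and the weaker summits of the other replicates. No summit lay in the part of the gene towards the other end: the summit farthest in, the weaker one of replicate 2, was 34.0% along the span of 2332 bp.

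**Figure D1:**
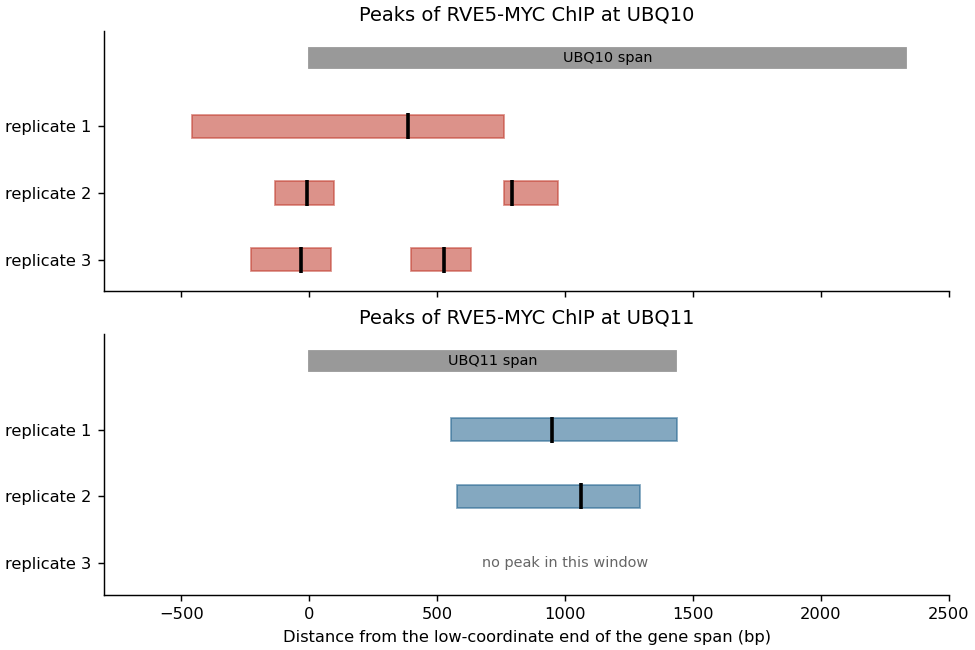
Peaks at UBQ10 (top) and UBQ11 (bottom) in each of the 3 ChIP replicates, by distance in bp from the low-coordinate end of the gene. Coloured bars are peaks, black ticks summits and grey bars gene spans. At UBQ10 replicate 1 has 1 broad peak of 1220 bp over the low-coordinate end. Replicates 2 and 3 have 2 narrow peaks each, 1 over this end and 1 inside the gene. At UBQ11 replicates 1 and 2 have a peak inside the gene and replicate 3 has none.

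The signal at UBQ10 was moderate. The pileup at the strongest summit, by the p-value of the authors' list, was 42, 39 and 47 in replicates 1, 2 and 3, with exact 95% Poisson intervals of 30.3 to 56.8, 27.7 to 53.3 and 34.5 to 62.5 that cover counting error only. The intervals take each pileup as a plain count, although the peaks were selected by being called. They are not compared between lists, since depth is unknown. The pileups ranked 213 of 676, 399 of 827 and 191 of 864, so that of replicate 2 equalled the median of its list and that of replicate 3 lay above the upper quartile of 46. The fold of these peaks was 3.12, 2.74 and 3.16, 3.01 ± 0.235 (SD, n = 3), lowest in replicate 2. By fold they ranked 118 of 676, 263 of 827 and 112 of 864. The second peaks of replicates 2 and 3 were weaker, with a pileup of 33 and 40 and a fold of 2.40 and 2.47, below the median fold of their lists.

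The strongest UBQ10 summits were farther apart than those of most other shared regions, through replicate 1. When peaks that share at least 1 bp are merged, 199 regions held a peak of every replicate, and the strongest summits of a region were a median of 75 bp apart at most. At UBQ10 this distance was 418 bp, and 6 of the 199 regions, UBQ10 included, reached it. The summit of replicate 1 lay 397 bp and 418 bp from the strongest summits of replicates 2 and 3. Those of replicates 2 and 3 were only 21 bp apart. The merged region was 1220 bp wide against a median of 494 bp, and again 6 of the 199 were at least as wide. Its extent is that of the broad peak of replicate 1, so both values rest on the same peak. These are descriptions of 1 region, with no test.

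UBQ11 had the stronger peaks of the members, but in replicates 1 and 2 only. Of all protein-coding genes, 4.65% had a peak within 3000 bp in at least 2 replicates, and UBQ10 and UBQ11 were the 2 of 5 members that did. The peak of replicate 1 ran from 2588558 to 2589441 on chromosome 4, and that of replicate 2 from 2588580 to 2589297. They covered 61.4% and 50.1% of the gene's span of 1434 bp. Their summits lay 949 bp and 1064 bp inside from the low-coordinate end, 115 bp apart, which is 66.2% and 74.2% along the gene. So the signal at UBQ11 lay within the gene body, whereas the stronger summits of UBQ10 in replicates 2 and 3 lay at an end of the gene.

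The pileup at UBQ11 was 43 in replicate 1 and 50 in replicate 2, with exact 95% Poisson intervals of 31.1 to 57.9 and 37.1 to 65.9. The fold was 3.40 and 3.56, 3.48 ± 0.113 (SD, n = 2). In each of these lists the fold at UBQ11 was above that at UBQ10, and the peaks ranked 77 of 676 and 58 of 827. In replicate 3 the nearest peak was 71.95 kb away, although that list was the longest. A list gives no value where no peak was called, so the level at UBQ11 in replicate 3 is unknown. List 3 held 71 peaks whose pileup divided by fold lay between the values of the UBQ11 peaks, and their lowest fold was 2.22. These are called peaks only, and the background at UBQ11 in replicate 3 is unknown. The value is therefore no floor for UBQ11 in that list.

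Summits inside a gene were common, but the same gene seldom held them in several replicates. Of all peaks, 39.9%, 37.8% and 38.9% in replicates 1, 2 and 3 had their summit inside a protein-coding gene. Of all protein-coding genes, 2.46% held a summit in at least 1 replicate, 0.663% in at least 2 and 0.226% in all 3. UBQ11 held summits in 2 and UBQ10 in all 3, the latter in replicates 2 and 3 through its weaker peaks. At UBQ10 these summits lay 388, 793 and 527 bp inside from the low-coordinate end in replicates 1, 2 and 3, so at different places. The shares over all genes likewise do not require summits to coincide.

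UBQ3 was the member closest to having a peak. Just outside the window of 3000 bp, replicates 1 and 2 had peaks 4.93 kb and 4.83 kb from it, with a fold of 2.26 and 2.81. In replicate 3 the nearest was 7.97 kb away. The peaks of replicates 1 and 2 were nearest to AT5G03220 and that of replicate 3 to DIP2, so other genes lie between them and UBQ3. UBQ4 had its nearest peak at 51.5, 139.8 and 78.8 kb in replicates 1, 2 and 3. UBQ14 had its nearest at 134.9, 41.3 and 38.7 kb. Within 100 kb of UBQ4 there were 1, 0 and 1 peaks, and within 100 kb of UBQ14 0, 1 and 1.

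The members with peaks are near one another on chromosome 4. UBQ11 and UBQ10 are 128.5 kb apart, and UBQ14 lies elsewhere on the same chromosome. Between the windows of UBQ11 and UBQ10 the lists held 1, 2 and 1 further peaks. Within 100 kb of UBQ10 there were 2, 5 and 3 peaks in replicates 1, 2 and 3, its own included, and within 100 kb of UBQ11 3, 3 and 1. The median protein-coding gene had 1 in each replicate, and the 90th percentile was 3, 4 and 4. UBQ10 and UBQ11 count their own peaks here, so a value above the median says little. Within 100 kb of UBQ3, which had no peak in its window, there were 3, 3 and 5.

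By span length, the members with peaks were at both extremes. UBQ10 has the longest span of the 5 and UBQ11 the shortest, with UBQ3 (1856 bp), UBQ4 (1957 bp) and UBQ14 (1637 bp) between them. At its low-coordinate end, over which or inside which its peaks lie, UBQ10 has 1964 bp free of protein-coding genes. At the other end AGD13 begins after 184 bp. UBQ11 has 5713 bp free on the low side and 627 bp on the high side. UBQ4 is the most crowded of the members that do not overlap a neighbour, with gaps of 57 bp and 19 bp, and UBQ14 overlaps the span of AT4G02880 on its low side and has 3488 bp free on the other. UBQ3 has gaps of 1096 bp and 858 bp. On the low side, UBQ10 and UBQ11 have more free sequence than the 3 members without peaks, and on the high side they do not. Without strand, the low side need not be the same side of transcription in each gene. At UBQ11 the summits lay nearer to the high-coordinate end, 484 bp and 369 bp from it in replicates 1 and 2. With 5 genes this is a description, with no test.

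Width set some of the members' peaks apart from most of their lists. In replicate 1 the UBQ10 peak was the second widest of 676, and the UBQ11 peak of 884 bp ranked sixth, tied with 1 other. In replicate 2 the UBQ11 peak of 718 bp ranked 16 of 827. The median width was 302 bp in replicate 1 and 282 bp in replicate 2. Among peaks of the same list within 1 unit of the same −log10 p, no other was as wide as the UBQ10 peak (78 peaks) or the UBQ11 peak (50 peaks) of replicate 1. The UBQ11 peak of replicate 2 was among the 3 widest of 28. The UBQ10 peaks of replicates 2 and 3 were not wide: they measured 212 to 316 bp, against a median of 293 bp in list 3. The width at UBQ10 therefore rests on replicate 1, while that at UBQ11 was seen in both replicates that had a peak.

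**Figure D2:**
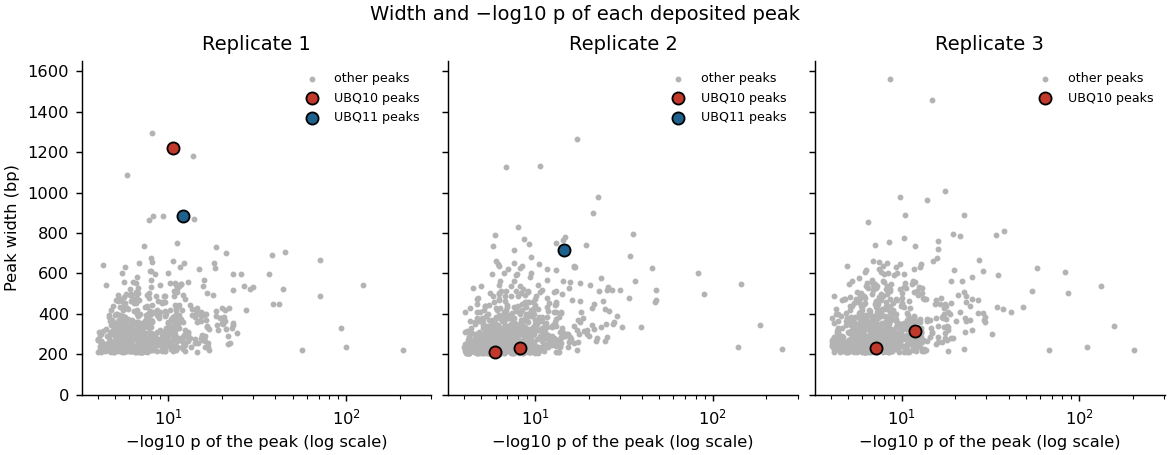
Width in bp of each deposited peak against its −log10 p (log scale), 1 panel per ChIP replicate; grey points are other peaks, red points UBQ10 and blue points UBQ11. In replicate 1 the UBQ10 and UBQ11 peaks, 1220 and 884 bp wide, lie above nearly all peaks of like −log10 p; in replicates 2 and 3 the UBQ10 peaks, 212 to 316 bp wide, lie among the bulk.

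Among the 20 widest peaks of each list, 13, 10 and 10 lay for at least 50% of their width in protein-coding genes, which is 65%, 50% and 50%. Of all peaks of the lists 41.6%, 41.0% and 40.4% did. The 13 of replicate 1 include the UBQ10 and UBQ11 peaks and 3 peaks of 1 other gene, KAK. The 10 of replicate 2 include the UBQ11 peak, so the members are part of these counts. KAK also has peaks among the 10 of replicate 2 and the 10 of replicate 3. The wide peaks of other genes included those at KAK, which encodes a ubiquitin ligase and had 2 of the 4 widest peaks of replicate 1 (1180 and 1089 bp). They also included RBCS1A, a gene for the small subunit of Rubisco and one of the strongly transcribed genes of leaves, with 1124 bp in replicate 2 and 776 bp in replicate 3. Of the width of these RBCS1A peaks, 47.2% and 73.3% lay in protein-coding genes. The evening complex gene ELF3 had 871 bp in replicate 1, inside the gene. The peak with the highest fold of list 1 was 668 bp wide and nearest to the clock regulator GI. It lay outside protein-coding genes, its summit 683 bp from GI. KAK, ELF3, GI and RBCS1A were chosen here after their widths were seen. Wide peaks were thus found in or near genes of several kinds. Transcription was not measured in these samples, and its part in the width or place of the peaks was not tested.

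The local background implied by the fold was low for the list at all but 1 of the members' 7 peaks. If the fold is the pileup over a background, the pileup divided by the fold gives that level, up to any constant that the peak caller adds. At the strongest UBQ10 peaks it was 13.5, 14.3 and 14.9 in replicates 1, 2 and 3, and at UBQ11 it was 12.7 and 14.1 in replicates 1 and 2. The medians of the lists were 14.7, 15.5 and 16.0. Of the 7 peaks, the weaker one of UBQ10 in replicate 3, at 16.2, was the only one above the median of its list. Counted from the highest ratio, the strongest UBQ10 peaks ranked 527 of 676, 625 of 827 and 628 of 864. The UBQ11 peaks ranked 605 of 676 and 666 of 827. These peaks thus ranked higher by fold than by pileup: at UBQ11, 77 against 191 in replicate 1 and 58 against 120 in replicate 2. The 3 peaks with the highest pileup in each list had pileups from 1251 to 3234 and ratios from 453 to 2087. The members' peaks had pileups from 33 to 50 and ratios from 12.7 to 16.2. This ratio does not show how reads shared between ubiquitin units were placed, and the part of repeats within the genes was not tested.

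**Figure D3:**
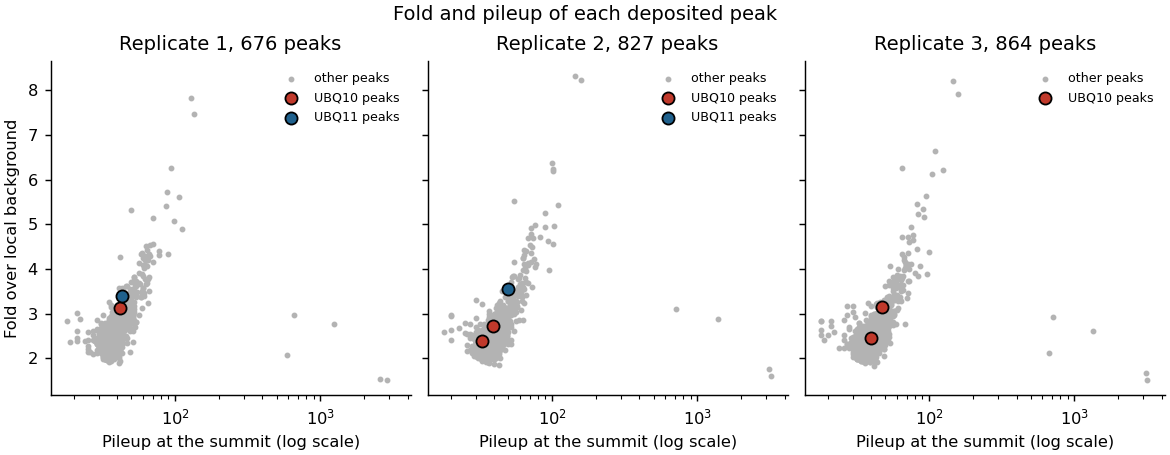
Fold, taken here as over a local background, against the pileup at the summit (log scale) for each peak, 1 panel per ChIP replicate. Grey points are other peaks, red points UBQ10 and blue points UBQ11. The members' peaks, with pileups of 33 to 50 and folds of 2.40 to 3.56, lie in the upper or middle part of the main cloud, away from the few peaks with pileups above 200.

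The 3 regions most like UBQ10 in fold and pileup were sought among the 198 other regions shared by all replicates. Likeness was the mean absolute difference of log2 fold and log2 pileup over the 3 replicates. These 3 regions had MIOX1 (difference 0.07), TIFY7 (0.08) and EP1 (0.08) as their nearest protein-coding genes. The region of MIOX1, on chromosome 1 from 4970229 to 4970684, had folds of 3.03, 2.55 and 3.30. It was 456 bp wide and its summits were up to 119 bp apart, so it was narrower than UBQ10 and its summits agreed more closely. Most shared regions were so: only 6 of the 199, UBQ10 included, reached the width of UBQ10, and 6 its summit distance. The regions of TIFY7 and EP1 were 352 and 453 bp wide, with summits up to 110 and 209 bp apart.

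Other genes that encode ubiquitin or its close relatives had few peaks, as most genes did. Of 12 such genes, among them those for ubiquitin joined to a ribosomal protein (UBQ1, UBQ2, UBQ5 and UBQ6) and for the related modifiers RUB1 and RUB3, 1 had a peak in any replicate (8.33%), against 12.8% of all protein-coding genes. It was RUB3, with a fold of 2.31 in replicate 3, at a summit 1436 bp outside the gene and nearer to AT1G11960. None had a peak in 2 replicates, against 4.65% of all genes, so with 12 genes the count is near that background. UBQ1, UBQ2, UBQ5 and UBQ6 had no peak within 3000 bp in any list. Nor did the polyubiquitin-type genes among the 12, such as UBQ8, UBQ9, UBQ12 and UBQ13.

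Among the listed genes that act on ubiquitin, UBC2 and RPN10 had peaks. Of 26 genes for activating enzymes, conjugating enzymes, proteasome subunits and ubiquitin proteases, 2 had a peak in at least 1 replicate (7.69%), and both had peaks in at least 2. Of all genes, 12.8% had a peak in at least 1 replicate and 4.65% in at least 2. UBC2, which encodes a conjugating enzyme, had folds of 3.42 in replicate 1 and 2.80 in replicate 2. Its summits lay 65 bp and 8 bp outside the low-coordinate end, and the summit of replicate 1 was nearer to AT2G02750, at 28 bp. RPN10, which encodes a ubiquitin receptor of the proteasome, had a peak within 3000 bp in all 3 replicates, but at different places. Summits 633 bp and 617 bp outside the gene were found in replicates 1 and 2, with folds of 2.46 and 2.64. Further summits in replicates 1 and 3, 1389 bp and 1297 bp outside, were nearer to MYB4.

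Genes known for high transcription had peaks too, most of them in 1 replicate. Of 15 strongly transcribed leaf genes 8 had a peak in at least 1 replicate (53.3%), 2 in at least 2 (13.3%) and 1 in all 3 (6.67%), against 12.8%, 4.65% and 1.81% of all genes. This list was chosen with results for several of its genes known, and RBCS1B and RBCS2B share 1 peak. Fewer of the 15 had a summit inside the gene: 5 in at least 1 replicate and 0 in at least 2. Of all genes, 2.46% and 0.663% did. The gene with peaks in all 3 was PSBO1, a photosystem II protein, but the summits lay 1882 to 2107 bp beyond it, inside AT5G66580. RBCS1A had peaks in 2, with folds of 2.49 and 2.91, its summits 259 bp outside and 64 bp inside the low-coordinate end. Of 16 housekeeping genes such as actins, 4 had a peak in at least 1 replicate (25%), 1 in at least 2 (6.25%) and 0 in all 3. The gene with 2 was EF1A4, a translation elongation factor, whose summits lay 2372 bp and 262 bp inside from the low-coordinate end in replicates 2 and 3, so these were different places. The 5 polyubiquitin genes gave 2, 2 and 1, or 40%, 40% and 20%. With 5 genes picked with results known, these shares are a description only.

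**Figure D4:**
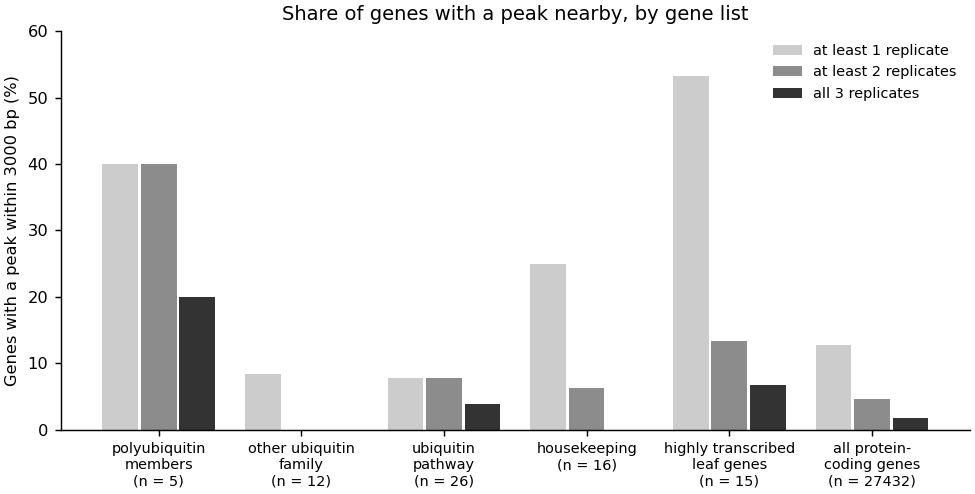
Percent of genes with a peak within 3000 bp in at least 1, at least 2 and all 3 ChIP replicates, for the 5 polyubiquitin genes, 4 other gene lists and all protein-coding genes. Bars start at 0 and carry no error since each is 1 count over a list. Leaf genes reach 53.3% in at least 1 replicate but 6.67% in all 3, and the polyubiquitin genes 40% and 20%.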

How the data were processed

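ChIP-seq peak lists of 3 RVE5-MYC replicates, 1 per replicate, were used; the input library has no list used here. The genome build TAIR10 and CASAVA 1.4 are named per the submitters' processing notes. The aligner, peak caller, threshold and use of the input are not stated in these sources. Per the file headers, the authors' lists give for each peak its positions in bp, a pileup, a fold enrichment, and the −log10 of a p-value and of a q-value. That the pileup is read at the summit and the fold taken against a local background is assumed here. Library totals are unknown.

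Gene spans came from a RefSeq gene table on TAIR10.1, and distances assume that its nuclear chromosomes are numbered as in TAIR10. No gene coordinates are printed. The table has no strand, and no sequence was used, so the planned comparison of ubiquitin units, proteins and promoter motifs was not run. All 74 listed genes were found in the table.

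Peaks within 3000 bp of a span were counted per replicate, and shares over all 27432 protein-coding genes give the background. A peak can count for several genes. The strongest peak of a gene or region in a replicate is the one with the best p-value. Alternatives were flanks of 0, 1000 and 5000 bp, the better 50% of each list, a fold of at least 3, stricter agreement and each replicate left out. Named were the members, genes of the 4 other lists with peaks (any replicate for the ubiquitin family, at least 2 for the rest), the genes nearest to members' peaks and the 3 most like regions for UBQ10. Genes named outside this rule are said to have been chosen later, or mark a neighbour or an example without a peak. Members and lists were chosen with earlier results of these data known. With 1 condition no test between groups was possible. Python 3.11.15, pandas 2.3.3, numpy 2.4.6 and scipy 1.17.1 were used, and the overlap counts were tested on simulated data.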

Additional observations from a re-analysis of the deposited data

How the results depend on the processing

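UBQ10, the 1 member with a peak in all 3 replicates, remained so with flanks of 0, 1000 and 5000 bp and with the better 50% of each list. The count fell to 0 with a fold of at least 3 (replicate 2 has 2.74), with summits within 100 bp and with a reciprocal overlap of at least 50%. Leaving out 1 replicate gave 1 to 2 members in both remaining lists, 2 without replicate 3, which has no UBQ11 peak. Members in at least 2 replicates, 2 in all, were 1 to 2 (1 without replicate 1 or 2) and 3 with a flank of 5000 bp, which adds UBQ3; the share of all genes, added after seeing the data, then rose from 4.65% to 6.81%. The background of 1.81% became 0.492% without flank, 1.01% with 1000 bp and 2.64% to 2.88% with 1 replicate left out, when 2 lists sufficed. Mean fold ran from 2.93 to 3.14 at UBQ10 and from 3.40 to 3.56 at UBQ11 with 1 replicate left out. No paired analysis was possible because the lists all belong to 1 condition. A typical pileup of about 39 and unknown library totals limit what a missing peak can show.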

Other observations

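Beyond the fixed lists, 115 protein-coding genes other than the members carry the word ubiquitin in their RefSeq symbol or synonyms, a set chosen after the data were seen. Of these, 11 had a peak within 3000 bp in at least 1 replicate (9.57%), 5 in at least 2 (4.35%) and 2 in all 3 (1.74%), near the shares of 12.8%, 4.65% and 1.81% over all protein-coding genes. The 5 were UBC2, RPN10, KAK, LUL1 and UBP22, and the 2 were RPN10 and KAK.

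KAK (AT4G38600), a ubiquitin ligase gene known for its role in leaf hairs, was the 1 gene of the set with summits inside its span in all 3 replicates. It held 3, 5 and 3 peaks in replicates 1, 2 and 3. Their folds ran from 2.29 to 3.63, from 2.55 to 3.48 and from 2.94 to 3.63. All 11 summits lay inside the gene, whose span is 9078 bp, and the peaks were 356 to 1459 bp wide. At UBQ11 the 2 peaks also lay inside the gene and were broad. At LUL1 and UBP22 the summits lay 1697 to 1841 bp outside the gene and were nearer to other genes, DIP2 and AT5G10780.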
